A study of Mus musculus with 4 samples.

Results

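The genes described are 9 genes of ion and water transport, Kcnj13, Kcne2, Trpm3, Slc4a5, Slc12a2, Aqp1, Clic6, Car12 and Atp2b3, chosen by symbol from the 31053 genes counted, and each was found once. Their levels were followed in choroid plexus cells, ependymal cells and the other cell classes of brain vascular-associated cells (BVACs), the cells recovered with anti-CD31 magnetic beads from mouse brain. The mice were wild-type male C57BL/6, 12 to 14 weeks old. Those under chronic social defeat (CSD) spent 14 days in the home cage of an aggressive CD-1 male. They had 5 minutes of contact a day and a perforated partition otherwise. The home cage (HC) mice lived beside a CD-1 mouse for 14 days, always behind a partition and without encounters. Each condition had 8 mice, and cells of 4 mice were pooled per library, so that n = 2 libraries per condition (CSD 1, CSD 2, HC 1 and HC 2) and differences between single mice were not measured. The cerebellum, striatum, brainstem, olfactory bulbs and white matter had been removed before dissociation.

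The choroid plexus hangs in the brain ventricles and secretes most of the cerebrospinal fluid. Its epithelial cells move sodium, chloride and bicarbonate from blood to ventricle, and water follows. The membrane facing the ventricle carries the sodium pump together with potassium channels through which potassium leaves the cell again. Secretion gets its direction from which transport proteins sit on the ventricle side of the cell and which on the blood side. Ependymal cells are the ciliated epithelium of the remaining ventricle wall, continuous with the choroid plexus, and take little part in secretion.

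The 4 libraries held 27297599 to 30361474 UMIs (unique molecular identifiers, 1 per captured RNA molecule). From 2553 to 4934 barcodes per library passed as cells (at least 500 UMIs, 250 genes and at most 25% mitochondrial UMIs), 14415 in all, and 13424 of them were assigned to a class by marker genes, with no transport gene among the markers. Library pairs shared 0 to 9 cell barcodes. Choroid plexus cells numbered 1704, with 405 in CSD 1, 87 in CSD 2, 369 in HC 1 and 843 in HC 2, and their median depth was 18768, 26812, 24087 and 10998 UMIs. Of all cells, 49 lay just under its limit and 77 just over it. Ttr, the transthyretin gene that defines this epithelium and was not used by the gate, made up 30.4% to 31.8% of their UMIs. The 10 ependymal markers stood between 0.219 (Tmem212) and 101 CPM (counts per 1000000 UMIs) in choroid plexus cells, each below its level in the 203 ependymal cells (275 to 4790 CPM). Of the 10 choroid plexus markers, 9 were higher in choroid plexus than in ependymal cells and Calml4 was not (731 and 852 CPM). Since both classes were cut on the summed UMIs of these markers, Ttr left out, the marker levels are no independent check of the classes. Ttr also made up 10.6%, 2.33%, 11.1% and 14.0% of the free RNA in CSD 1, CSD 2, HC 1 and HC 2, measured in barcodes of 1 to 100 UMIs, and CSD 2 stood apart with little free choroid plexus RNA and few choroid plexus cells. Of its endothelial cells and microglia, many lay in clusters of their own, since CSD 2 gave 470 of the 503 cells of one endothelial cluster and 405 of the 434 cells of one microglial cluster.

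In the mouse genome (GRCm38, GENCODE M21 annotation) the genes lie on 7 chromosomes. Kcnj13 lies at chr1:87386363-87394729 on the minus strand, within the opposite-strand gene Gigyf2. Aqp1 and Slc4a5 lie far apart on chromosome 6, at chr6:55336432-55348555 and chr6:83219828-83304945, Car12 at chr9:66713686-66766845, Trpm3 at chr19:22139046-22995410, Atp2b3 at chrX:73503086-73571005 and Slc12a2 at chr18:57878678-57946821. Trpm3 also holds the microRNA gene Mir204 on the same strand, which these libraries did not count.

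Kcne2 (chr16:92292389-92298129) and Clic6 (chr16:92485736-92541243) share a strand of chromosome 16 and are 187.6 kb apart. Between them in choroid plexus cells, Smim11 stood at 104 ± 7.77 CPM (SD, n = 4 libraries) and Rcan1 at 40.4 ± 22.2, against 114 ± 10.4 and 23.7 ± 3.89 in endothelial cells, and Kcne1 had 2 UMIs. Smim11 thus stood at like levels in both classes, while Fam243 and Gm29805, also between the neighbours, had 18 and 17 UMIs in choroid plexus cells and 0 in endothelial cells, too few to set a level beside those of Kcne2 and Clic6.

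The promoters of Kcnj13 and Kcne2 are shown as those of the potassium channel genes. These had the largest differences between CSD and HC toward lower levels. Their mean levels differed least between the shallow and the deep cluster of choroid plexus cells, though not when cells were split by depth alone (below). They are RefSeq sequences on GRCm38.p6, from 250 bases before to 50 after the annotated start, with matches to TATAAA and CCAAT on either strand in capitals (the second can read ATTGG).
Kcnj13, minus strand, chr1:87394680-87394979: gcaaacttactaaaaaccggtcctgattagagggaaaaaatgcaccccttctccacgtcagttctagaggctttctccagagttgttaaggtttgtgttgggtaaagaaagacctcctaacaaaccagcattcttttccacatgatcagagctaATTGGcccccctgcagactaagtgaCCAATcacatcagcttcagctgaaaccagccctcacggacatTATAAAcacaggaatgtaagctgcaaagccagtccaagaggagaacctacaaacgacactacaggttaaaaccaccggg
Kcne2, plus strand, chr16:92292139-92292438: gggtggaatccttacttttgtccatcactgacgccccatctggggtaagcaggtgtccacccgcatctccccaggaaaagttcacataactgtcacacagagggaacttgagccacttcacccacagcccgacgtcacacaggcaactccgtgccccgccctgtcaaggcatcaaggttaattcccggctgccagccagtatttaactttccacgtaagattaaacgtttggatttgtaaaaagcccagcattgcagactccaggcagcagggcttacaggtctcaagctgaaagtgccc
In Kcnj13 the TATAAA match began at -29 and the CCAAT matches at -96 and -71 from the start. TATAAA was found in 13.62% and CCAAT in 37.41% of 32851 promoters of this length, and neither in that of Kcne2. TAATCC, the core letters bound by Otx2, was found in 7.06% of the promoters and in none of the 8 entries that 6 of the 9 genes had. These are matches of letters only.

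In choroid plexus cells all 9 genes were measured in each of the 4 libraries, at mean levels from 99.7 to 1063 CPM. Kcnj13, the inward rectifier potassium channel of the ventricular membrane, ranked 56th by level among all genes in these cells, with 909 CPM in CSD 1, 1109 in CSD 2, 1111 in HC 1 and 1125 in HC 2. CSD 1 was the low library, and CSD 2 lay next to HC 1. Kcne2, a small subunit that joins voltage-gated potassium channels and alters their gating, stood at 370, 287, 378 and 409 CPM in the same order, so that both CSD libraries were below both HC libraries.

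Slc12a2 encodes the sodium, potassium and chloride cotransporter NKCC1, and stood at 447 and 487 CPM in the CSD libraries and 456 and 369 in the HC libraries. Slc4a5, a sodium bicarbonate cotransporter of the ventricular membrane, had 140 and 152 CPM against 154 and 129. Car12, a carbonic anhydrase that faces the outside of the cell and interconverts carbon dioxide and bicarbonate, had 164 and 195 CPM against 183 and 159. For each of these 3 carriers and enzymes the CSD and HC libraries overlapped.

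Aqp1, the water channel of the ventricular membrane, was the lowest of the 9, with 94.7 and 113 CPM in CSD against 108 and 82.3 in HC. Clic6, of the chloride intracellular channel family, had 386 and 406 CPM against 436 and 338. The groups overlapped in both. Of the calcium genes, Trpm3, a calcium-permeable cation channel, had 459 and 404 CPM against 450 and 391, and Atp2b3, a plasma membrane pump that exports calcium, 172 and 142 against 173 and 143. In both, CSD 1 and HC 1 were the higher libraries and the conditions overlapped.

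**Figure D1:**
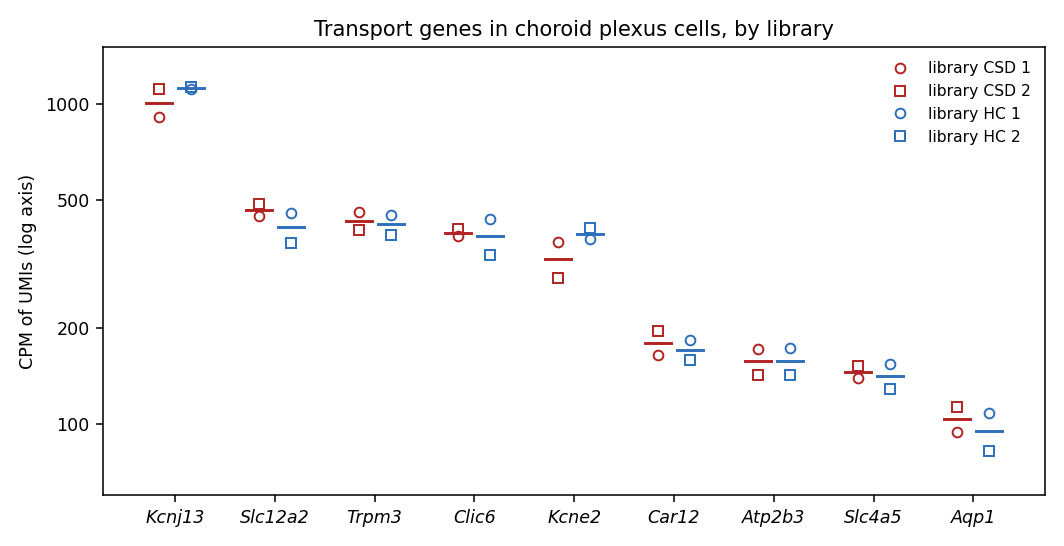
Levels of the 9 transport genes in choroid plexus cells, in CPM of UMIs on a log axis. Each point is 1 library (circles replicate 1, squares replicate 2; red CSD, blue HC) and the line is the mean of a condition, and both CSD points lie below both HC points for Kcne2 (287 and 370 against 378 and 409) and, by less, for Kcnj13, where 28.7% of all genes have CPM that do not overlap either.

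Since 3′ libraries count 1 UMI per captured molecule whatever the length of the transcript, the genes were ordered by CPM. How well the RNA of each gene is captured was not measured, so the order is one of UMIs. Kcnj13 (1063 ± 103 CPM, SD, n = 4 libraries) was above Slc12a2 in 4 of 4 libraries. Slc12a2 (439 ± 50.4), Trpm3 (426 ± 33.9), Clic6 (391.6 ± 41.3) and Kcne2 (361 ± 52.3) followed, and neighbours among them did not keep their order in every library. Kcne2 was above Car12 (175 ± 16.9) in 4 of 4 libraries, Car12, Atp2b3 (157 ± 17.4) and Slc4a5 (144 ± 11.5) changed places between libraries, and Aqp1 (99.7 ± 14.0) was below Slc4a5 in 4 of 4. The coefficient of variation over libraries ran from 7.96% for Trpm3 to 14.5% for Kcne2, with a median of 8.71% over the 2001 genes of 50 to 2000 CPM in the same cells.

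The genes were found together in single cells. Each choroid plexus cell of at least 10000 UMIs was thinned to 10000. This left out 94 cells in CSD 1, 28 in CSD 2, 120 in HC 1 and 378 in HC 2. The median of the deep cells kept held UMIs of 8 of the 9 genes in every library. All 9 were seen in 27.3% of 311 cells in CSD 1, 28.8% of 59 in CSD 2, 31.7% of 249 in HC 1 and 19.4% of 465 in HC 2. None of the cells kept held fewer than 4. Kcnj13 had UMIs in 99.7% to 100% of these cells and Aqp1, the least abundant, in 55.0% to 65.0%. The variance of the UMI count between cells was 0.829 to 1.30 times its mean for Aqp1, near the value of 1 that counting alone gives, and 1.04 to 2.53 times for Kcnj13. Thinned to 1000 UMIs, which left out 171 of the 1704 choroid plexus cells and 2222 of the 5114 endothelial cells, Kcnj13 was detected in 62.8% ± 5.34 of choroid plexus cells and 1.253% ± 0.916 of endothelial cells, and Aqp1 in 7.62% ± 2.30 and 0.104% ± 0.137 (SD, n = 4 libraries). Without thinning these shares were 92.3% and 2.15% for Kcnj13 and 65.4% and 0.233% for Aqp1, at median depths of 10998 to 26812 and 875 to 1518 UMIs.

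Whether CSD changed the transport genes of choroid plexus cells was tested on UMIs summed per library. None of the 9 genes passed (edgeR quasi-likelihood test, adjusted p = 0.99999 for each). The number was 0 also with DESeq2 and at an unadjusted p under 0.05, which 392 of the 11546 genes tested reached in edgeR. Of all genes tested, edgeR called 0.0693% (8 of 11546, all higher in CSD) and DESeq2 5 genes. Without HC 1 or without HC 2 that background was 0 genes, without CSD 1 it was 57 and without CSD 2 it was 26, and the 9 genes stayed uncalled in each. Kcne2 had the largest difference, with a log2 fold change of CSD over HC of -0.28 ± 0.17 (SE; 95% interval -0.63 to 0.07; edgeR adjusted p = 0.99999). It was the 1 gene of the 9 whose libraries did not overlap after TMM scaling, which held for 28.9% of all genes. Kcnj13 had -0.17 ± 0.17 (-0.53 to 0.19), which was -0.0094 without CSD 1 and -0.35 without CSD 2. At the other end Slc12a2 had 0.16 ± 0.17 (-0.19 to 0.51) and Aqp1 0.09 ± 0.18 (-0.27 to 0.46).

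The remaining 5 genes lay between -0.02 (Atp2b3) and 0.04 (Car12). The median of the 9 was 0.02 and that of all genes tested -0.00097. The intervals give the range of differences that fit the 4 libraries. For Trpm3 the interval ran from -0.33 to 0.36, for Slc4a5 from -0.32 to 0.36 and for Clic6 from -0.34 to 0.36. Differences within these ranges were thus not excluded. The ends are not limits of detection, since a larger difference could also have stayed uncalled. The replicates are pools of separate mice, and n = 2 sets the width of the intervals.

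**Figure D2:**
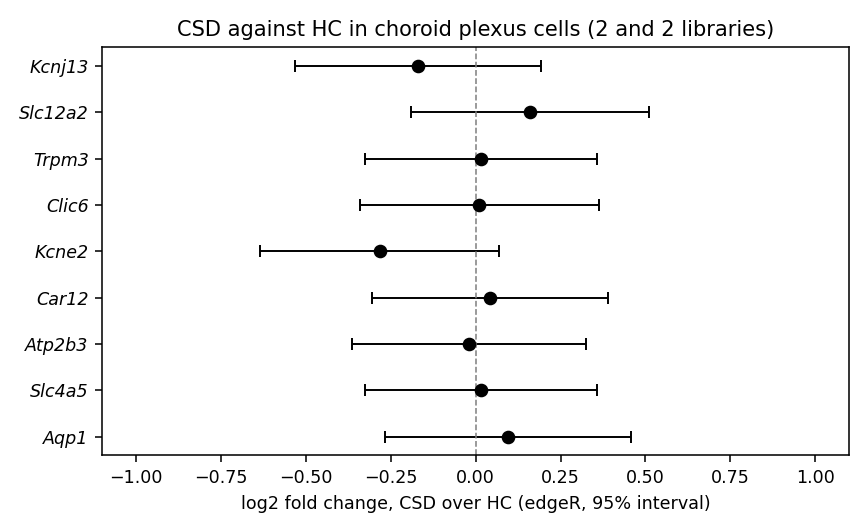
Log2 fold change of CSD over HC for the 9 transport genes in choroid plexus cells, with 95% intervals from the edgeR fit over 2 CSD and 2 HC libraries. Every interval includes 0, and Kcne2 at -0.28 lies farthest from it.

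The other genes of fluid secretion gave the same count. Of 37 further ion and water transport genes listed, 34 could be tested and 0 were called by edgeR or DESeq2. At an unadjusted p under 0.05 there were 0 too, against 392 of all 11546 genes tested with edgeR. Log2 fold changes of the 34 ran from -0.50 for Lrrc8d, a subunit of volume-regulated anion channels, to 0.59 for Car13, a cytosolic carbonic anhydrase. Their median was 0.05. Among the most abundant were Atp1b1 at 997 ± 97.6 CPM, Fxyd1 at 873 ± 63.2, Car2 at 436 ± 21.02 and Stk39 at 343 ± 16.6 (SD, n = 4 libraries). Atp1b1 and Fxyd1 encode a subunit and a regulator of the sodium pump, Car2 the cytosolic carbonic anhydrase and Stk39 the SPAK kinase that phosphorylates NKCC1. The pump subunit Atp1b1 thus stood near Kcnj13, and Stk39 and Car2 near Slc12a2 and Kcne2.

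Choroid plexus cells were 9.93% of cells in CSD 1, 3.41% in CSD 2, 12.95% in HC 1 and 17.09% in HC 2. The mean was 6.67% ± 4.61 in CSD and 15.02% ± 2.92 in HC (exact permutation test, two-sided, p = 0.333, the smallest that 2 against 2 libraries can give). Among cells of at least 2000 UMIs the conditions overlapped, with 19.1% in CSD 1 and 5.38% in CSD 2 against 17.8% in HC 1 and 39.5% in HC 2 (exact permutation test, two-sided, p = 0.667). The levels above are CPM within the cells recovered.

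Outside choroid plexus cells most values of the 9 genes were low, and free RNA alone gives some UMIs in every class. To set the values against it, the UMIs expected in a class were computed from its Ttr UMIs and the ratio of each gene to Ttr in the free RNA of the same library. In choroid plexus cells themselves the observed UMIs were 0.916 (Slc12a2) to 1.48 (Kcne2) times that expectation. In single libraries they were 0.556 (Slc12a2) to 2.09 (Atp2b3) times it. The Poisson intervals below do not cover this spread, and ratios within it are not read as above free RNA. Classes were cut from expression, so their levels are compared as descriptions without a test.

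Kcnj13 and Kcne2 stood near the level that free RNA gives. In 5114 endothelial cells Kcnj13 stood at 14.8 ± 13.5 CPM, 71.7-fold below choroid plexus cells by the means and 33.5-fold to 375.5-fold in single libraries. Its 128 UMIs were 1.24 times the number expected (95% Poisson interval 1.04 to 1.48, counting error only). In 4690 microglia it stood at 10.2 ± 7.21 CPM, 1.23 times the number expected (1.01 to 1.48). Kcne2 stood at 5.06 ± 3.89 CPM in endothelial cells (1.23 times, 0.891 to 1.65) and 4.06 ± 3.68 in microglia (1.38 times, 1.002 to 1.85). In 65 fibroblasts Kcnj13 had 7 UMIs, 5.06 times the number expected (2.04 to 10.4). In the 203 ependymal cells, next to choroid plexus cells in the ventricle, Kcnj13 had 9 UMIs and Kcne2 4.

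Slc4a5, Car12, Atp2b3 and Aqp1 were low in the same classes. Endothelial cells had 12 UMIs of Slc4a5, 31 of Car12, 24 of Atp2b3 and 13 of Aqp1, which were 0.828, 1.33, 1.65 and 0.986 times the numbers expected. In microglia Slc4a5 had 31 UMIs (2.69 ± 2.47 CPM), 2.36 times the number expected (1.604 to 3.35), a higher ratio than in endothelial cells. Ependymal cells had 1 UMI of each of the 4 genes, over 33 to 66 cells per library. Against a floor of 3 UMIs per library, Car12 was at least 13.7-fold and Slc4a5 at least 11.7-fold higher in choroid plexus than in ependymal cells in every library. On the same floor Atp2b3 was at least 13.6-fold and Aqp1 at least 7.83-fold higher in every library. Atp2b3 was above free RNA in 2 small classes, with 4 UMIs in 33 neurons (43.9 times the number expected, 11.95 to 112) and 4 in 90 oligodendrocyte precursors (14.8 times, 4.02 to 37.8).

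Slc12a2 was high in further classes. In 458 pericytes, the contractile cells of capillary walls, it stood at 505 and 476 CPM in the CSD libraries and 499 and 573 in the HC libraries, and the mean of 513 ± 42.0 lay above the choroid plexus level in 3 of 4 libraries. Its 289 pericyte UMIs were 56.2 times the number expected from free RNA (49.9 to 63.1), and 42.0% ± 2.58 of pericytes thinned to 1000 UMIs held one, against 31.5% ± 2.58 of choroid plexus cells, where thinning left out 224 of the 458 pericytes. In oligodendrocytes, the cells that make myelin, it stood at 776, 727, 1071 and 852 CPM in CSD 1, CSD 2, HC 1 and HC 2, above choroid plexus cells in 4 of 4 libraries. That class held 25 cells with 88 Slc12a2 UMIs in all, of which HC 1 had 2 cells and HC 2 had 3. Lower levels, still over the number expected from free RNA, were found in microglia (76.2 ± 17.3 CPM, 15.6 times), endothelial cells (50.8 ± 9.76, 7.51 times) and ependymal cells (29.8 ± 7.93, 13.2 times). That number is scaled by Ttr and does not cover pericyte RNA recovered with other cells. The pericyte marker Vtn stood at 331 ± 85.8 CPM in endothelial cells and 29.0 ± 23.0 in microglia. The part of pericyte RNA in the Slc12a2 levels was not tested.

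Trpm3 and Clic6 were also found above free RNA. Trpm3 stood at 49.8, 112, 85.1 and 33.6 CPM in the astrocytes of CSD 1, CSD 2, HC 1 and HC 2. The mean of 70.1 ± 35.2 CPM was 6.07-fold below choroid plexus cells, and the 38 UMIs were 16.6 times the number expected (11.8 to 22.8). CSD 2, with the least free Ttr RNA, held 27 of them, and the ratio was 5.45 (2.72 to 9.76) without CSD 2 and 30.4 (21.3 to 42.1) without HC 2. Trpm3 also had 6 UMIs in oligodendrocyte precursors (8.59 times the number expected, 3.15 to 18.7), 4 in neurons (16.2 times, 4.42 to 41.6) and 14 in arterial smooth muscle cells (2.61 times, 1.42 to 4.37). In endothelial cells Trpm3 was lower, at 7.48 ± 3.62 CPM and 1.59 times the number expected (1.23 to 2.03). Clic6 stood at 35.8, 39.2, 25.6 and 14.0 CPM in ependymal cells, a mean of 28.7 ± 11.3 that was 13.7-fold below choroid plexus cells, and its 40 UMIs were 14.9 times the number expected (10.6 to 20.3). In CSD 2 the ependymal level was 39.2 CPM and the endothelial level 2.53. Of the 9 genes, Clic6 and Slc12a2 had 40 UMIs each in ependymal cells and the other 7 had 1 to 9.

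**Figure D3:**
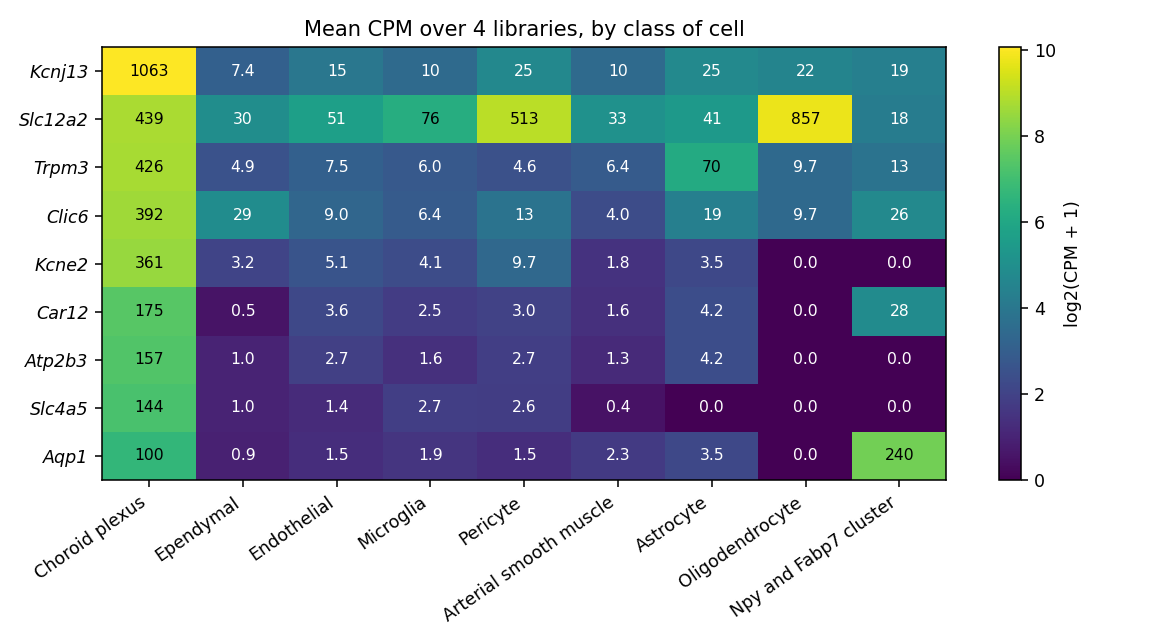
Mean CPM over 4 libraries of the 9 transport genes (rows, by level in choroid plexus cells) in 8 classes of cells and in the cluster led by Npy and Fabp7, coloured by log2(CPM + 1). The choroid plexus column is the highest of each row except for Slc12a2, which is higher in pericytes (513) and oligodendrocytes (857), and Aqp1, which is higher in the Npy and Fabp7 cluster (240).

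Aqp1 was higher than in choroid plexus cells in a small cluster of 69 cells led by Npy, Fabp7, Apod and Ncam1, of which 66 fell in no class. Aqp1 stood there at 218 CPM in CSD 1 (29 cells), 214 in CSD 2 (11 cells), 322 in HC 1 (6 cells) and 206 in HC 2 (23 cells). It was above choroid plexus cells in 4 of 4 libraries, and 240 ± 54.9 CPM on average. The highest value, that of HC 1, came from 15532 UMIs of all genes. The 41 UMIs were spread over 25 cells and were 255 times the number expected from free RNA (183 to 346). Car12 had 7 UMIs in the same cells (27.9 ± 28.9 CPM), while Kcne2, Slc4a5 and Atp2b3 had 0. A count of 0 allows up to 40.9, 53.5, 193 and 77.1 CPM in the 4 libraries (3 UMIs). The cluster was picked after its Aqp1 level had been seen. By 4 markers it came nearest to astrocytes, but none of the astrocytes of the gate lay in it, and it is called by its leading genes.

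**Figure D4:**
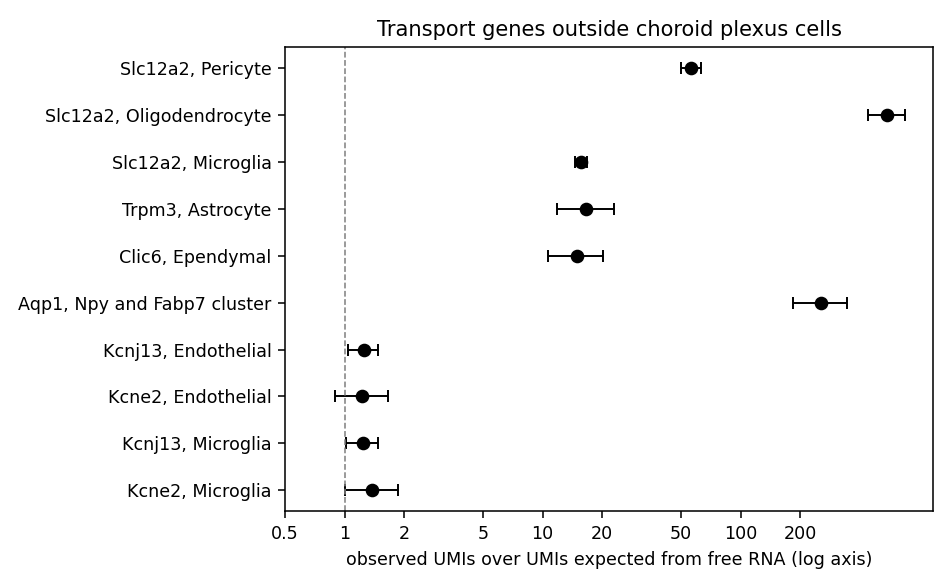
Observed UMIs over the UMIs expected from free RNA (log axis) for transport genes outside choroid plexus cells, pooled over 4 libraries, with 95% Poisson intervals that cover counting error only. Kcnj13 and Kcne2 in endothelial cells and microglia lie at 1.23 to 1.38, and the 6 other points (Slc12a2 in pericytes, oligodendrocytes and microglia, Trpm3 in astrocytes, Clic6 in ependymal cells and Aqp1 in the Npy and Fabp7 cluster) lie between 14.9 and 548.

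CSD was compared with HC in the other classes where a gene had enough UMIs to be tested. None of these genes was called by edgeR or DESeq2 in ependymal cells (1 tested, background 0% of 5111 genes), endothelial cells (6 tested, 0.0384% of 10417), microglia (5 tested, 0% of 10037), pericytes (1 tested, 0.0409% of 2447) or arterial smooth muscle cells (1 tested, 0% of 6217), and in astrocytes (0.117% of 852) none could be tested. In edgeR, 1 gene in 1 class, endothelial cells, had an unadjusted p under 0.05, as did 701 of the 10417 genes tested there. Slc12a2 in pericytes had a log2 fold change of -0.13 (95% interval -0.61 to 0.35), in microglia -0.45 (-0.97 to 0.07) and in arterial smooth muscle cells 0.52 (-0.21 to 1.24). Clic6 in ependymal cells had 0.79 (-0.24 to 1.81; edgeR adjusted p = 0.99997).

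The gene with the low p was Kcnj13 in endothelial cells, at 7.70 and 2.95 CPM in CSD against 15.1 and 33.6 in HC, a log2 fold change of -2.11 (-3.32 to -0.90; edgeR adjusted p = 0.316). Leaving out 1 library leaves a condition with a lone sample, assumed to vary like the other condition. Kcnj13 then passed in 3 cases, with -2.96 without CSD 1 (edgeR adjusted p = 1.27e-08), where 5.1% of all genes were called, -1.56 without CSD 2 (0.00585), where 2.7% were, and -2.55 without HC 1 (0.0347), where 0.137% were. Without CSD 1, Kcne2 in endothelial cells (-3.94, adjusted p = 0.0284) and Kcnj13 in microglia (-3.67, 0.0220, with 0.23% of all genes called) passed too. Ttr was 0.446% and 0.137% of endothelial UMIs in CSD and 0.430% and 1.02% in HC, and Kcnj13 was 0.774, 0.850, 1.36 and 1.48 times the number expected from free RNA in CSD 1, CSD 2, HC 1 and HC 2. The Ttr share and the Kcnj13 CPM were lowest in CSD 2 and highest in HC 2, but between CSD 1 and HC 1 Ttr was nearly equal while Kcnj13 was higher in HC 1. The part of free RNA, and that of the separate cluster of CSD 2, was not tested.

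The CSD effect itself was compared between classes with the library as a block. No gene of the 9 passed against ependymal cells (0% of 10663 genes called) or endothelial cells (0% of 11510). Within those classes only 1 and 6 of the 9 had enough UMIs to be tested, and the rest entered through their choroid plexus counts. Slc4a5, Aqp1, Car12 and Atp2b3 had 1 UMI each in ependymal cells. Their intervals were accordingly wide, such as -12.0 to 2.32 for Slc4a5 and -3.88 to 12.9 for Aqp1, so that the test could not decide for them. At an unadjusted edgeR p under 0.05 there were 0 and 2 of the 9. The share of all genes was not counted, so these numbers have no background and are not read as a result. For Kcnj13 the log2 fold change was less negative in choroid plexus than in endothelial cells, with a difference of 1.94 (0.87 to 3.01; edgeR adjusted p = 0.887). Without the filter on low counts this difference passed, at 1.80 (edgeR adjusted p = 0.0130), where 0.0827% of all genes were called. With cells of at least 1000 UMIs it was 1.52 (0.380). For Clic6 the log2 fold change was 0.77 lower in choroid plexus than in ependymal cells (difference -0.77, interval -1.65 to 0.11).

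Choroid plexus cells fell into 3 clusters, built without the 9 genes among the variable genes, and the transport genes differed between them as a description. A shallow cluster, with median depths of 949 to 1152 UMIs per library and mitochondrial shares of 2.70% to 6.19%, was set against the deep cluster with 13617 to 39325 UMIs and 9.90% to 12.3%. Kcnj13 stood at 1096 ± 47.9 CPM in the shallow and 1034 ± 113 in the deep cluster (SD, n = 4 libraries), and Kcne2 at 370 ± 17.5 and 350 ± 41.6. Both potassium channel genes were at like levels in both clusters. So was the typical gene, since the median ratio of shallow to deep was 0.9986 over the 2001 genes of 50 to 2000 CPM. In the remaining cluster, which Kcnj13 and Kcne2 led by fold, they stood at 1171 ± 64.1 and 387 ± 119 CPM.

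Of the other 7 genes, 6 were lower in the shallow cluster in every library, as were 22.0% of the 2001 genes of 50 to 2000 CPM. Slc12a2 stood at 222 ± 39.7 against 457 ± 55.4 CPM, 0.485 times the deep level, Trpm3 at 0.569, Atp2b3 at 0.578, Slc4a5 at 0.613, Car12 at 0.630 and Clic6 at 0.655 times, each lower in 4 of 4 libraries. Aqp1 was lower in 3 of 4, at 0.893 times. Ttr was 1.252 times the deep level, and the nuclear RNA Malat1 0.231 times, lower in 4 of 4 libraries. When cells were split by depth alone, the levels under 2000 UMIs were less regular. Slc12a2 was lower than in cells of 10000 UMIs or more in 4 of 4 libraries (357, 291, 349 and 190 against 449, 493, 461 and 371 CPM). The same held for 8.80% of the 2001 genes. Trpm3 stood at 811 CPM in CSD 1 and 145 in CSD 2, where 21 cells with 20625 UMIs gave few counts per gene. The means of Trpm3 (452 ± 281 against 422 ± 34.6 CPM), Slc4a5 (144 ± 37.1 against 144 ± 11.7) and Aqp1 (141 ± 109 against 99.4 ± 13.1) were then no lower in shallow cells. Those of Clic6 (304 ± 89.6 against 395 ± 40.7 CPM), Car12 (143 ± 89.15 against 175 ± 19.6) and Atp2b3 (135 ± 55.15 against 156 ± 18.1) were lower. Kcnj13 stood at 1123 ± 353 against 1056 ± 103 CPM in the same split, and Kcne2 at 425 ± 90.9 against 360 ± 54.4. The part of the mitochondrial and Malat1 shares in these levels was not tested.

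**Figure D5:**
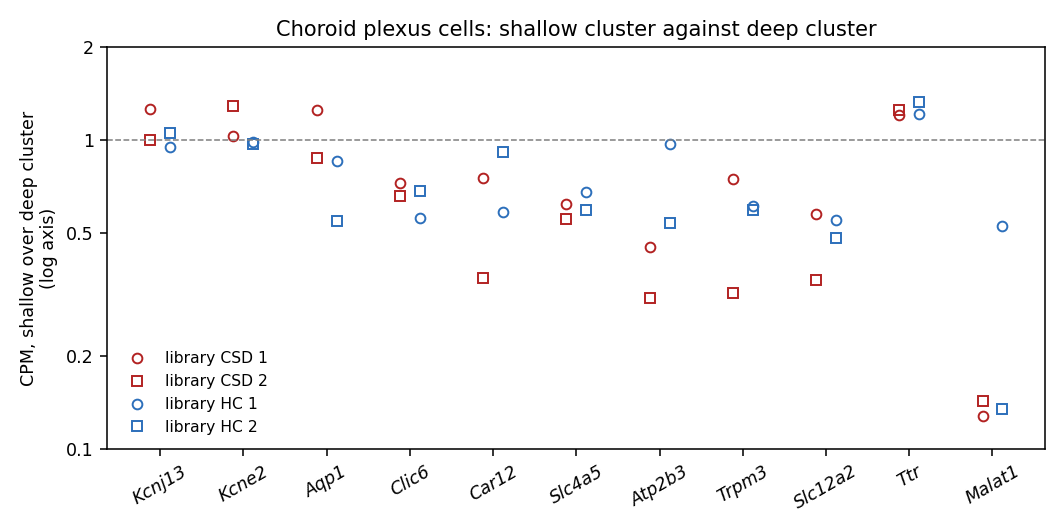
Level in the shallow over the deep cluster of choroid plexus cells (log axis) for the 9 transport genes, Ttr and Malat1, with 1 point per library. Kcnj13 and Kcne2 lie at 0.954 to 1.29, while Slc12a2 lies at 0.352 to 0.579 and Slc4a5 at 0.557 to 0.679 in the 4 libraries.

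The genes whose levels over 9 classes were most like each transport gene were drawn from 11623 genes, by Pearson's r of log2(CPM + 5). These classes had at least 10 cells in each library, which left out oligodendrocytes, where Slc12a2 stood above choroid plexus cells. The 9 points share libraries, and 1 of them is the choroid plexus class, which sets most of these values. Kcnj13 was most like Cox8b (r = 0.991), Kl (0.985) and Ttr (0.985), Kcne2 like Ins2 (0.987), Crb3 (0.982) and Kcnj13 (0.982), and Slc4a5 like Crb3 (0.995), Ins2 (0.992) and Ooep (0.991). Aqp1 was most like Crb3 (0.990), Hemk1 (0.986) and Pon1 (0.984), Car12 like Cox8b (0.972), Hs6st2 (0.964) and Htr2c (0.964), and Atp2b3 like Enpp2 (0.976), Slc29a4 (0.973) and Cldn3 (0.969). Kl, Ttr, Enpp2 and Otx2 are on the marker list of the class.

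The closest matches of the remaining 3 genes had lower values. Clic6 was most like Smim22 (0.969), Frmpd1os (0.963) and Otx2 (0.960), Trpm3 like Fras1 (0.963), Upp1 (0.946) and Dync1i1 (0.946), and Slc12a2, with its pericyte level, like Fap (0.908), Nt5dc2 (0.900) and C1galt1c1 (0.885).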

How the data were processed

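Each of the 4 libraries had a matrix of UMI counts per gene and barcode as deposited by the authors, made with Cell Ranger (the file headers name version 3.1.0 and the submitters' notes 4.0) on GRCm38 (mm10), without cell calling or normalization. Reads came from a 10x 3′ kit. All columns of values belonged to a library. Cells needed 500 UMIs, 250 genes and at most 25% mitochondrial UMIs. A choroid plexus cell needed 100 marker UMIs per 10000 UMIs, Ttr left out, and a cell whose second class reached 0.5 of the best was left out as mixed (57 cells over the choroid plexus limit). Clusters (scanpy 1.11.5) were an alternative and held 99.7% of the gated choroid plexus cells. Scrublet marked 123 cells, under 0.5% in both CSD libraries, where it cannot be taken to have worked, and the cells were kept.

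Counts were summed per library and class, filtered with filterByExpr, scaled by TMM and tested with edgeR 4.0.16 (glmQLFit, glmQLFTest, two-sided) in classes with at least 10 cells in each library, with Benjamini-Hochberg adjustment over all genes tested and a threshold of 0.05. DESeq2 1.42.0 was an alternative, and the script was tested on simulated counts. CPM are raw, with means and SD over libraries. Poisson intervals (95%) cover counting error only, and intervals of log2 fold changes come from the edgeR fit over libraries. Of 31053 gene IDs, 31011 matched GENCODE M21. The text names the 9 genes, the listed transport genes that were called or among the 5 most abundant, 1 of which is not reported here (Lrrc8d and Car13 are named as the ends of the range), and the 3 genes most like each of the 9 among those reaching 20 CPM. The genes and lists were chosen with earlier results of these data known.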

Additional observations from a re-analysis of the deposited data

Results flagged for a closer look

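Transport gene signal also appeared in the 430 cells that no class took up. Aqp1 stood there at 55.9 CPM on average, between 44.8 and 74.4 in the 4 libraries, above its highest level in any library of endothelial cells or microglia, and 40 of its 57 UMIs came from the cluster led by Npy and Fabp7, where the mean was 240 CPM. Trpm3 stood at 66.8 CPM in the cells of no class, between 26.1 and 85.6, with 66 UMIs that were 3.095 times the number expected from free RNA, and 20 of them lay in the shallow choroid plexus cluster.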

How the results depend on the processing

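The 9 genes stayed uncalled in choroid plexus cells under each of the 15 other settings, with log2 fold changes between -0.46 and 0.35, and 115 of 135 of these kept their sign. Those that did not were at most 0.143 in size. With the complexity filter Trpm3 was -0.0071, Slc4a5 -0.035, Clic6 -0.012 and Atp2b3 0.027, with at most 10% mitochondrial UMIs Trpm3 was -0.090, Car12 -0.0019 and Atp2b3 0.0475, and without a filter on low counts Clic6 was -0.0031. Leaving out 1 library at a time gave ranges of -0.0637 to 0.10 for Trpm3, -0.0845 to 0.13 for Slc4a5, -0.0697 to 0.29 for Aqp1, -0.14 to 0.18 for Clic6, -0.11 to 0.19 for Car12 and -0.14 to 0.10 for Atp2b3, of -0.35 to -0.0094 for Kcnj13, -0.46 to -0.14 for Kcne2 and 0.033 to 0.30 for Slc12a2, and of -0.27 to 0.0615 for Slc12a2 in pericytes. The causes were not tested.

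The background of genes called in choroid plexus cells (8) was 5 with DESeq2, 34 without the filter, 1 at 10% mitochondrial UMIs, 2 with clusters and 0 to 57 without 1 library. In the 6 other classes together, 6 genes were called, 54 with DESeq2, 33 without the filter, 11 at 1000 UMIs and 15 to 651 without 1 library, and transport genes were called 0 to 3 times without 1 library. With no filter, 1 of the 9 genes, Kcnj13, passed the test of the difference between choroid plexus and endothelial cells, with 16 of 19357 genes called.

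With the replicate block 17 genes were called in choroid plexus cells and 39 in the other classes, none of them among the 9. In choroid plexus cells the replicate numbers did not pair the libraries (correlation of deviations 0.041 over 11546 genes). Pairing in the other classes was not checked. In microglia 137 of 10037 genes had an unadjusted edgeR p under 0.05 without the block and 436 with it. Of the 5 transport genes tested there, 0 and 2 were among them. Levels were recomputed too, but leaving out 1 of the 4 libraries cannot move a mean by 1 SD, so those were no check. Of 77 levels recomputed, 76 moved by less than 1 SD. The other was Trpm3 in astrocytes by clusters (13.2 CPM), where the cluster given that name held 0 of the 288 astrocytes of the gate, 285 of which lay in a cluster left unnamed. The share of choroid plexus cells stayed lower in CSD throughout, by 5.09 to 11.6 percentage points without 1 library, though at 2000 UMIs CSD 1 lay above HC 1. With n = 2, and 87 choroid plexus cells in CSD 2, small changes could not be seen.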
